A study of Rattus norvegicus with 9 samples.

Results

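ADAMTS proteases are secreted zinc metalloproteinases that cut the proteoglycans and glycoproteins of the extracellular matrix. In cartilage, ADAMTS4 and ADAMTS5 are the main aggrecanases, which cleave the core protein of aggrecan, the proteoglycan that lets the tissue bear load. They are made as proenzymes, activated by furin-type convertases, held back by the inhibitor TIMP3 and cleared by the endocytic receptor LRP1. The members described here were the 7 rows of the deposited gene table whose gene name was Adamts1, Adamts4, Adamts5, Adamts7, Adamts9, Adamts12 or Adamts15, out of 18924 genes in the table. Their Ensembl identifiers in that order are ENSRNOG00000001607, ENSRNOG00000003538, ENSRNOG00000057794, ENSRNOG00000028036, ENSRNOG00000023257, ENSRNOG00000018865 and ENSRNOG00000009892. They were chosen by name, for proteases that cut aggrecan, versican or cartilage oligomeric matrix protein (COMP), and all 7 were among the 13856 genes that passed the filter on low counts.

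RNA was sequenced from primary chondrocytes of SD rats, grown in DMEM with fetal bovine serum and used at the first or the second passage. Treatments of 24 h were compared in 3 groups of 3 libraries: thrombin plus an unnamed inhibitor in rat plasma (RPTi), thrombin in rat plasma (RPT), and only rat plasma (RP). All 3 groups therefore carried rat plasma, and no library without it, and none with the inhibitor but without thrombin, is described. Thrombin is the clotting protease that also signals through protease-activated receptors, and the title of the series names its inflammatory role and MEK, ERK and STAT3 signalling. The age of the rats is not given in the sources used here, nor whether replicate libraries stem from different rats or culture dishes. The p-values therefore cover the spread among these libraries alone, and that spread may be technical.

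Library totals ranged from 31914905 to 37125039 counts in RPTi, from 31877265 to 37009972 in RPT and from 33520888 to 43962783 in RP. The cells carried the defining markers of chondrocytes: the 8 listed, Col2a1, Acan and Sox9 among them, summed to between 64430 and 69582 CPM (read counts relative to the TMM-scaled library total) in RPTi, 23439 to 26459 CPM in RPT and 38062 to 40483 CPM in RP. The 5 markers of fibroblasts or dedifferentiated cells were high as well. They summed to between 16039 and 17654 CPM in RPTi, 9503 to 10381 CPM in RPT and 15734 to 17016 CPM in RP. Markers of macrophages were low, with 6 of 7 in the table and summed levels of 25.3 to 29.5 CPM in RPTi, 45.3 to 46.8 CPM in RPT and 24.3 to 28.5 CPM in RP. Endothelial markers stayed at or below 1.25 CPM in sum in every library (4 of 5 in the table). No listed marker with a row was at 0 in all 9 libraries.

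With thrombin 5 of the 7 genes fell together, while Adamts1 and Adamts7 did not pass the test. The promoters of members are shown as a description, and their part in this difference was not tested. RefSeq promoter sequences were matched for 5 of the 7 members (Adamts1, Adamts4, Adamts7, Adamts9 and Adamts12; build GRCr8, whereas the counts were made on Rnor_6.0). The 250 bases before the annotated start of Adamts1, which did not pass, and of 3 genes that fell are printed on the gene's strand, with capitals for matches to the motifs searched on both strands: TGANTCA, bound by AP-1; TGTGGT, bound by RUNX factors; and TTCNNNGAA, bound by STAT factors.
Adamts1 (chr11:38427385-38427634, minus strand): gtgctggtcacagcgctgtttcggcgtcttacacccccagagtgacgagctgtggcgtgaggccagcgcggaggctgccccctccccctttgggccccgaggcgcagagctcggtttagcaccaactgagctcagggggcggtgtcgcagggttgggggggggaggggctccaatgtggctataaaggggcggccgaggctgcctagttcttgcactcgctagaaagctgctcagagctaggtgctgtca
Adamts4 (chr13:86202761-86203010, plus strand): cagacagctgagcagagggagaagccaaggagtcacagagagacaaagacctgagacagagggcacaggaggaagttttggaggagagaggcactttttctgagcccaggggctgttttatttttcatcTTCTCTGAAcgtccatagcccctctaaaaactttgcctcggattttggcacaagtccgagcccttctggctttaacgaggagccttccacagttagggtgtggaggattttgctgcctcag
Adamts9 (chr4:127019877-127020126, minus strand): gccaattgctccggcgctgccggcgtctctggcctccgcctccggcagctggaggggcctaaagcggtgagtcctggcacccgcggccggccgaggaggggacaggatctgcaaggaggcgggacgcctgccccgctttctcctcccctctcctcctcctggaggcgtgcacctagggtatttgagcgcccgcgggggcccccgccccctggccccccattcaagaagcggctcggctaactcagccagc
Adamts12 (chr2:61759737-61759986, plus strand): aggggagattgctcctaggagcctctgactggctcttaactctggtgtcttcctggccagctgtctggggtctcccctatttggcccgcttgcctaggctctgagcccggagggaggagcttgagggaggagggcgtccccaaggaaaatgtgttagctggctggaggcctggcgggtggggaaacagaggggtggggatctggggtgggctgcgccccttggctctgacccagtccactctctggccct

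Over windows of 250 bases before and 50 after the start, the only match among the 5 members was the STAT-type motif of Adamts4, which begins 121 bases before the start. This motif was present in 8.87% of all 33469 RefSeq promoter windows of the same length, the AP-1 motif in 7.33% and the RUNX motif in 17.3%. The windows differed in base composition: G and C made up 72.3% in Adamts9, 65.0% in Adamts1, 61.3% in Adamts12, 52.3% in Adamts4 and 46.7% in Adamts7, against a median of 51.7% over all windows. A match is a description of the letters, and a window without one says nothing about the factor.

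Levels between genes were compared as the deposited FPKM (fragments per kilobase of gene length and per library total). Adamts1, a secreted protease that cuts aggrecan and versican, was the highest member in every library, with a mean of 37.3 ± 3.39 FPKM in RPTi, 29.1 ± 1.65 FPKM in RPT and 27.0 ± 0.278 FPKM in RP (SD, n = 3). Adamts5 was second in every group, and its range over libraries did not overlap that of its neighbours in the order. In RP the order after these was Adamts9, Adamts12, Adamts7, Adamts4 and Adamts15, and only the ranges of Adamts4 (1.68 to 2.27 FPKM) and Adamts15 (1.50 to 1.68 FPKM) overlapped. In RPT, Adamts7 followed at 2.74 ± 0.263 FPKM, above Adamts12 and Adamts9, whose ranges overlapped each other. In RPTi, Adamts12 followed at 7.82 ± 0.386 FPKM, and Adamts15 (2.30 to 2.45 FPKM) and Adamts7 (2.26 to 2.39 FPKM) overlapped. These levels rest on the gene lengths that the authors used, which ran from 3180 bases for Adamts5 to 8600 bases for Adamts12.

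**Figure D1:**
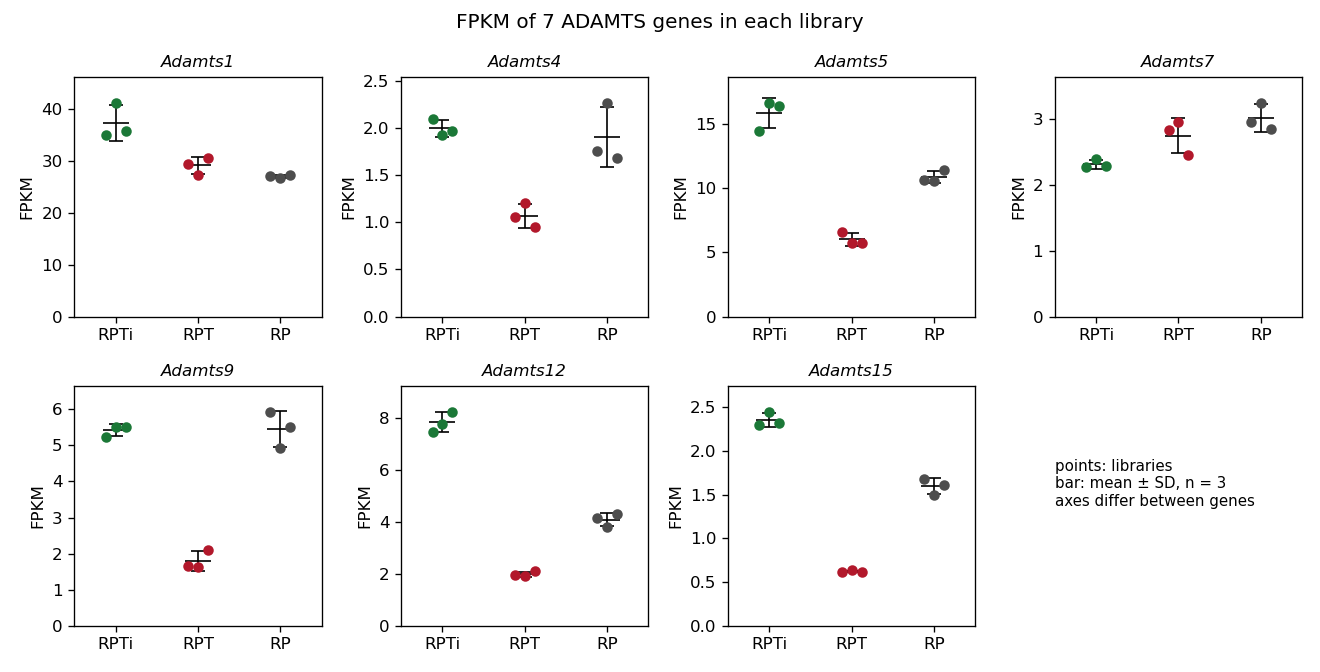
Deposited FPKM of each of the 7 ADAMTS genes in RPTi, RPT and RP; points are libraries, bars are the mean ± SD (n = 3), and each gene has its own axis from 0. In Adamts4, Adamts5, Adamts9, Adamts12 and Adamts15 the 3 RPT libraries lie below all libraries of both other groups.

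Thrombin in plasma lowered 5 of the 7 genes, both classical aggrecanases among them, and raised none. Of all genes tested, 15.2% fell and 13.6% rose in RPT against RP (28.9% called in all). The median log2 fold change of the 7 members was -0.87, and that of all genes tested was 0.00 (-0.00071). In TMM-scaled CPM the groups did not overlap for 6 of the 7 members, beside 40.4% of all genes tested. These were the 5 that fell and Adamts1, whose RPT libraries lay above its RP libraries without passing the test. Adamts9 fell the most of the 7, 3.08-fold, and Adamts4 the least of the 5 that fell, 1.81-fold. In RNA from whole cultures, fewer cells of a type and less RNA per cell cannot be told apart, and the 8 chondrocyte markers also fell in RPT against RP, 8 of 8. Of 5 markers of fibroblasts or dedifferentiated cells 3 fell, and the list summed to between 9503 and 10381 CPM in RPT and 15734 to 17016 CPM in RP. Of 4 tested macrophage markers 2 rose and 1 fell, within the low sums given above. The part of these markers in the fall of the members was not tested.

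Adamts5, the aggrecanase whose loss protects mice from surgically induced osteoarthritis, was at 6.60, 5.70 and 5.76 FPKM in the RPT libraries, against 10.6, 10.6 and 11.5 FPKM in the RP libraries. Every RPT library lay below every RP library, and the fall was 1.83-fold (log2 fold change -0.87, SE 0.08, adjusted p = 5.64e-06 by edgeR's quasi-likelihood test over all genes). Adamts4, the aggrecanase known for its response to interleukin 1, had 1.05, 1.20 and 0.944 FPKM in RPT, against 1.76, 2.27 and 1.68 FPKM in RP. Its groups did not overlap either (log2 fold change -0.85, SE 0.13, edgeR adjusted p = 0.000412), although RP replicate 2 stood above the other RP libraries. Adamts15, a further protease that cleaves aggrecan and versican, was the least abundant member in RPT. It was read at 0.615, 0.631 and 0.617 FPKM in RPT, against 1.68, 1.50 and 1.61 FPKM in RP, with a log2 fold change of -1.38 (SE 0.10, edgeR adjusted p = 5.60e-07).

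Adamts9, a versican- and aggrecan-cleaving protease, had 1.66, 1.61 and 2.11 FPKM in the RPT libraries, against 5.93, 4.93 and 5.51 FPKM in the RP libraries. The highest RPT library lay below the lowest RP library by more than the spread within either group (log2 fold change -1.62, SE 0.11, edgeR adjusted p = 3.16e-07). Adamts12, which cleaves COMP, had 1.94, 1.90 and 2.08 FPKM in RPT, against 4.13, 3.81 and 4.30 FPKM in RP, a 2.09-fold fall (log2 fold change -1.07, SE 0.07, edgeR adjusted p = 5.87e-07). Adamts7, the other protease of the COMP-cleaving pair, had 2.83, 2.95 and 2.45 FPKM in RPT, against 2.95, 3.24 and 2.84 FPKM in RP. Its groups overlapped and it did not pass (log2 fold change -0.15, SE 0.09, edgeR adjusted p = 0.240). Adamts1 did not pass either, at 29.5, 27.3 and 30.6 FPKM in RPT, against 27.0, 26.7 and 27.2 FPKM in RP (log2 fold change 0.09, SE 0.07, edgeR adjusted p = 0.371).

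**Figure D2:**
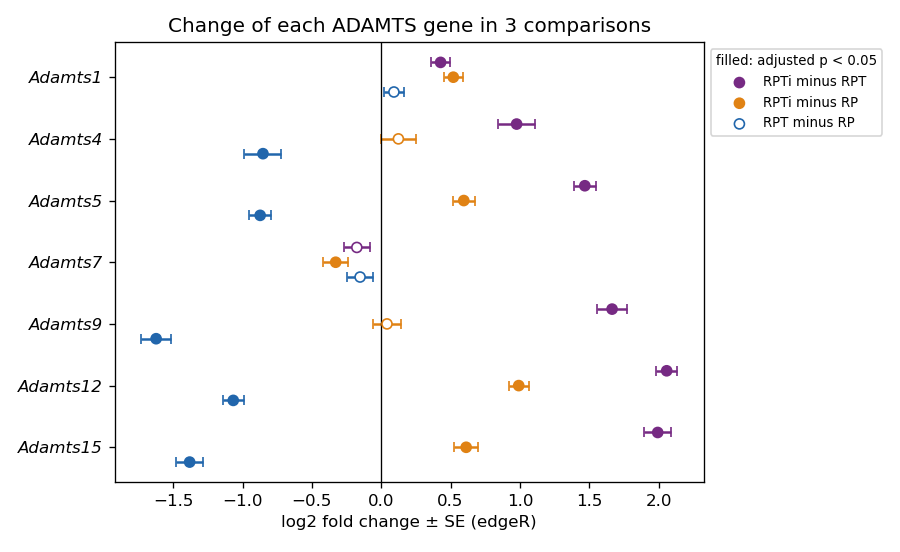
Log2 fold changes of the 7 ADAMTS genes from the edgeR fit, with their SE, for RPTi minus RPT, RPTi minus RP and RPT minus RP; filled symbols passed an adjusted p of 0.05. In RPTi minus RPT every gene but Adamts7 (-0.18) lies above 0, from 0.43 for Adamts1 to 2.06 for Adamts12.

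With the inhibitor added to thrombin, 6 of the 7 members were higher than with thrombin alone, and none was called lower. Of all genes tested, 20.4% rose and 21.1% fell in RPTi against RPT (41.5% called in all). Without TMM factors this background turned towards falls, with 2359 genes rising and 3788 falling against 2825 and 2920 with them, and the same 6 members rose while Adamts7 was then called lower. The median log2 fold change of the 7 members was 1.47, beside -0.01 over all genes tested. The groups did not overlap in CPM for 6 of the 7 members, beside 50.8% of all genes tested. The comparison shares its RPT libraries with RPT against RP, so the values of the 2 comparisons are given side by side and their opposite signs are not independent. The chondrocyte markers rose here too, 8 of 8, as did 4 of 4 tested markers of smooth muscle or pericytes, whose list summed to between 1186 and 1541 CPM in RPTi and 471 to 567 CPM in RPT. Of the fibroblast markers 2 rose and 2 fell, with a sum of 16039 to 17654 CPM in RPTi, and 2 of the 4 tested macrophage markers fell. The part of these markers in the members' rise was not tested.

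Adamts12 changed the most of the 7, with 7.46, 7.78 and 8.23 FPKM in the RPTi libraries, against 1.94, 1.90 and 2.08 FPKM in the RPT libraries. That was a 4.17-fold rise (log2 fold change 2.06, SE 0.08, edgeR adjusted p = 8.84e-10). Adamts15 had 2.30, 2.45 and 2.32 FPKM in RPTi, against 0.615, 0.631 and 0.617 FPKM in RPT, and rose 3.98-fold (log2 fold change 1.99, SE 0.10, edgeR adjusted p = 6.71e-09). In neither gene did the groups come near to overlapping. Adamts9 had 5.22, 5.52 and 5.51 FPKM in RPTi, against 1.66, 1.61 and 2.11 FPKM in RPT, a 3.17-fold rise (log2 fold change 1.67, SE 0.11, edgeR adjusted p = 7.22e-08).

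Both classical aggrecanases were higher with the inhibitor as well. Adamts5 had 14.5, 16.7 and 16.4 FPKM in the RPTi libraries, against 6.60, 5.70 and 5.76 FPKM in the RPT libraries, a 2.77-fold rise (log2 fold change 1.47, SE 0.08, edgeR adjusted p = 2.10e-08). Adamts4 had 2.10, 1.92 and 1.96 FPKM in RPTi, against 1.05, 1.20 and 0.944 FPKM in RPT, a 1.97-fold rise (log2 fold change 0.98, SE 0.13, edgeR adjusted p = 7.47e-05). Adamts1 rose less, 1.35-fold, with 34.9, 41.2 and 35.8 FPKM in RPTi, against 29.5, 27.3 and 30.6 FPKM in RPT (log2 fold change 0.43, SE 0.07, edgeR adjusted p = 0.000339). Its groups did not overlap, and RPTi replicate 2 stood above the other RPTi libraries. Adamts7 went the other way without passing, at 2.26, 2.39 and 2.28 FPKM in RPTi, against 2.83, 2.95 and 2.45 FPKM in RPT, and its groups, apart in FPKM, overlapped in TMM-scaled CPM (log2 fold change -0.18, SE 0.09, edgeR adjusted p = 0.148).

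Set against plasma alone, the genes that thrombin lowered divided in RPTi into those above the RP level and those near it. Of the 7 members 4 rose, 1 fell and 2 did not pass, beside 11.9% of all tested genes that rose and 12.3% that fell (24.2% called in all). The groups did not overlap in CPM for 5 of the 7, beside 43.9% of all genes tested. Without TMM factors the split over all genes was 1318 rising and 2280 falling, against 1647 and 1705 with them, and the counts of members were as before. Chondrocyte markers rose in this comparison too, 7 of 8, as did 4 of 4 tested smooth muscle or pericyte markers, whose list summed to between 1186 and 1541 CPM in RPTi and 486 to 537 CPM in RP. Of the 5 fibroblast markers 2 fell, Thy1 and Pdgfra. The part of these markers in the members' values was not tested. Adamts12 was 1.99-fold above RP, at 7.82 ± 0.386 FPKM in RPTi and 4.08 ± 0.247 FPKM in RP (SD, n = 3; log2 fold change 0.99, SE 0.07, edgeR adjusted p = 9.18e-07). Adamts15 was 1.53-fold above RP (log2 fold change 0.61, SE 0.09, edgeR adjusted p = 0.000285) and Adamts5 1.51-fold above it (log2 fold change 0.60, SE 0.08, edgeR adjusted p = 0.000143). Adamts1, which had not passed with thrombin alone, was 1.43-fold above RP (log2 fold change 0.52, SE 0.07, edgeR adjusted p = 0.000184).

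Adamts9 and Adamts4 did not pass in RPTi against RP. Adamts9 averaged 5.42 ± 0.168 FPKM in RPTi and 5.46 ± 0.503 FPKM in RP (SD, n = 3), with a log2 fold change of 0.04 (SE 0.10, edgeR adjusted p = 0.797). The fold change rests on TMM-scaled counts, in which Adamts9 averaged 44.4 CPM in RPTi and 43.1 CPM in RP, so its sign differs from that of the FPKM means. Adamts4 averaged 1.99 ± 0.0914 FPKM in RPTi and 1.90 ± 0.317 FPKM in RP (SD, n = 3), with a log2 fold change of 0.12 (SE 0.13, edgeR adjusted p = 0.527). In both genes the groups overlapped. Adamts7 was the member that fell, at 2.31 ± 0.0697 FPKM in RPTi and 3.01 ± 0.209 FPKM in RP (SD, n = 3; log2 fold change -0.33, SE 0.09, edgeR adjusted p = 0.0203). Its call was lost without RP replicate 1 (edgeR adjusted p = 0.0527), RP replicate 2 (0.0705), RPTi replicate 1 (0.0741) or RPTi replicate 3 (0.0657).

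Added over the 7 genes, FPKM was 68.8, 77.9 and 72.5 in the RPTi libraries, 44.2, 41.3 and 44.5 in the RPT libraries and 54.1, 53.0 and 54.6 in the RP libraries. The 3 groups did not overlap, and the ratio of the group means was 1.69 for RPTi over RPT, 1.36 for RPTi over RP and 0.804 for RPT over RP. The exact two-sided permutation test gave p = 0.1 in each of the 3 comparisons, the smallest p that 3 libraries against 3 allow. Adamts1 made up most of the sum in RPT and about as much as all the others together elsewhere: 49.3% to 52.9% in RPTi, 66.1% to 68.6% in RPT and 49.9% to 50.3% in RP. The share of Adamts5 was 21.7 ± 0.844% in RPTi, 13.9 ± 1.01% in RPT and 20.2 ± 0.688% in RP (SD, n = 3).

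**Figure D3:**
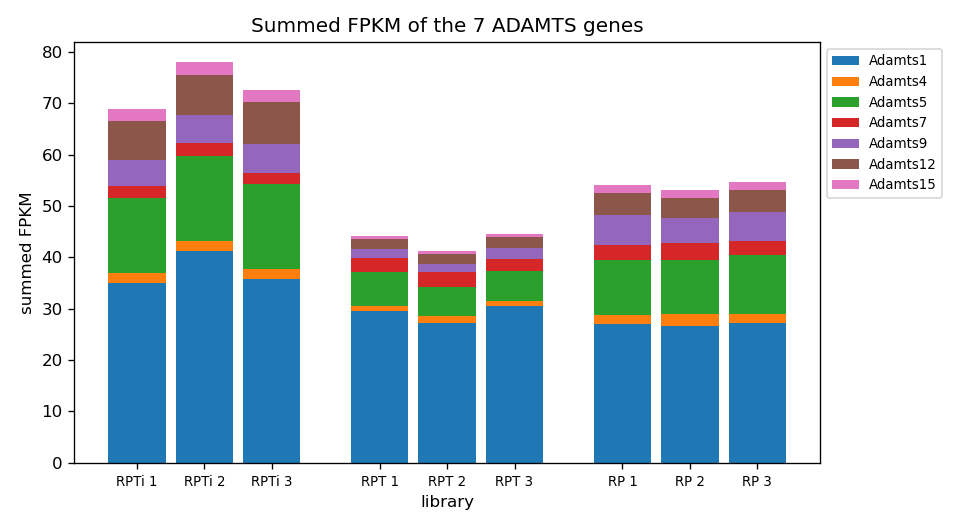
Deposited FPKM of the 7 ADAMTS genes stacked for each library, with the libraries of RPTi on the left, RPT in the middle and RP on the right. The sums run from 68.8 to 77.9 in RPTi, from 41.3 to 44.5 in RPT and from 53.0 to 54.6 in RP, with Adamts1 the tallest block in every library.

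The genes around these proteases were read from lists that were chosen with earlier results of these data known. Beside the counts below, 28.9% of all genes tested were called in RPT against RP and 41.5% in RPTi against RPT. Of 13 substrates and their binding partners, all tested, 6 fell and 2 rose in RPT against RP (median log2 fold change -0.44), and 9 rose and 2 fell in RPTi against RPT (median 1.28). Acan, Hapln1, Matn1 and Matn3 of this list are also among the chondrocyte markers, so the counts of the lists are not separate. Acan, the aggrecan gene, was at 2276 ± 81.6 FPKM in RPTi, 752 ± 56.1 FPKM in RPT and 1006 ± 57.8 FPKM in RP (SD, n = 3). It rose 3.18-fold in RPTi against RPT (edgeR adjusted p = 1.28e-09) and fell 1.35-fold in RPT against RP (edgeR adjusted p = 0.000196). Comp fell 1.57-fold in RPT against RP (edgeR adjusted p = 3.94e-06) and rose 2.74-fold in RPTi against RPT (edgeR adjusted p = 1.92e-09). Vcan, the versican gene, moved against both, at 15.9 ± 1.03 FPKM in RPTi, 27.3 ± 2.95 FPKM in RPT and 19.0 ± 1.73 FPKM in RP (SD, n = 3). It fell in RPTi against RPT (log2 fold change -0.71, edgeR adjusted p = 1.78e-05) and rose 1.42-fold in RPT against RP (edgeR adjusted p = 0.000537).

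Of 6 inhibitor genes, 4 fell and 1 rose in RPT against RP, and 4 rose and 1 fell in RPTi against RPT. Of all genes tested, 28.9% and 41.5% were called in these comparisons. Timp3, whose product binds the aggrecanases tightly, was at 287, 256 and 289 FPKM in the RPTi libraries, 93.6, 91.0 and 113 FPKM in the RPT libraries and 188, 190 and 209 FPKM in the RP libraries. It fell 2.00-fold in RPT against RP (edgeR adjusted p = 2.83e-06) and rose 2.94-fold in RPTi against RPT (edgeR adjusted p = 2.03e-08). Reck, a membrane-anchored inhibitor of metalloproteinases, fell 2.14-fold and rose 1.79-fold in the same comparisons (edgeR adjusted p = 4.04e-08 and 5.97e-08). Timp1 was the gene that rose in RPT against RP, 1.32-fold, and fell in RPTi against RPT, 1.94-fold (edgeR adjusted p = 0.000180 and 4.04e-08).

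The transcripts of the classical aggrecanases were also set against their inhibitor and their substrate within each library. Adamts4 and Adamts5 together made 5.78, 7.26 and 6.38 FPKM per 100 FPKM of Timp3 in RPTi, 8.17, 7.59 and 5.95 in RPT and 6.60, 6.77 and 6.30 in RP. The groups overlapped, with a difference of 0.680 between RPT and RP and of -0.764 between RPTi and RPT, and the exact permutation tests gave p = 0.4 for both (adjusted p = 0.436 over 12 comparisons of such ratios). Acan stood at 142, 118 and 123 FPKM per FPKM of Adamts4 and Adamts5 in RPTi, 101, 115 and 103 in RPT and 84.6, 80.1 and 71.5 in RP. These ranges did not overlap between the groups (exact permutation p = 0.1 for each pair of groups, the smallest possible, adjusted p = 0.150 over the same 12). The ratios were chosen after the values of the genes had been seen.

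Among 18 other ADAMTS and ADAMTS-like genes, 16 had a row and 14 were tested. In RPT against RP 7 fell and 2 rose (median log2 fold change -0.37), and in RPTi against RPT 8 rose and 2 fell (median 0.71). The share called over all genes tested was 28.9% and 41.5% in the same order. All 3 procollagen N-proteinase genes, whose products trim the amino-terminal propeptides of fibrillar procollagens, followed the members that thrombin lowered. Adamts14 was at 10.9 ± 1.04 FPKM in RPTi, 1.62 ± 0.266 FPKM in RPT and 2.83 ± 0.245 FPKM in RP (SD, n = 3), a 7.08-fold rise in RPTi against RPT and a 1.77-fold fall in RPT against RP (edgeR adjusted p = 3.49e-09 and 0.000287). Adamts3 rose 2.56-fold and Adamts2 1.98-fold in RPTi against RPT (edgeR adjusted p = 6.57e-08 and 7.65e-07), and fell 1.56-fold and 1.76-fold in RPT against RP (edgeR adjusted p = 0.000128 and 9.12e-06).

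Adamts8, a further ADAMTS protease, was named here after its values had been seen, as it went against most of its family. It had 18, 16 and 4 counts in the RPTi libraries, 138, 115 and 139 in the RPT libraries and 34, 31 and 37 in the RP libraries. It rose 4.27-fold in RPT against RP and was 10.1-fold lower in RPTi against RPT (edgeR adjusted p = 0.000402 and 1.08e-05). Without RPTi replicate 3, the library with 4 counts, the log2 fold change of RPTi minus RPT was -2.89, against -3.34 with it.

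**Figure D4:**
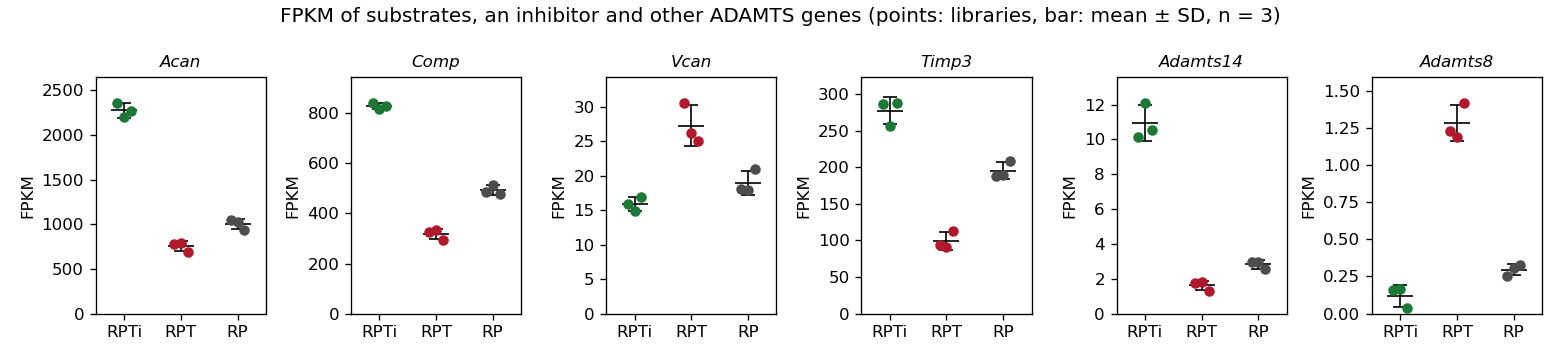
Deposited FPKM of the substrate genes Acan, Comp and Vcan, the inhibitor gene Timp3 and the ADAMTS genes Adamts14 and Adamts8 in RPTi, RPT and RP; points are libraries and bars are the mean ± SD (n = 3). Acan, Comp, Timp3 and Adamts14 are lowest in RPT, whereas Vcan and Adamts8 are highest there.

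Of 11 genes for activation, anchoring and uptake, 5 rose and 1 fell in RPT against RP, and 3 rose and 5 fell in RPTi against RPT. The convertase gene Furin was among the 3 that rose with the inhibitor, and Lrp1 passed in neither comparison. Fn1, the gene of fibronectin, which binds several of these proteases, rose 1.17-fold in RPT against RP and fell 1.46-fold in RPTi against RPT (edgeR adjusted p = 0.000434 and 1.07e-07). Of 15 tested transcription factor genes that are known to act on aggrecanase genes, 7 rose and 1 fell in RPT against RP, and 1 rose and 9 fell in RPTi against RPT. Beside both lists, the share called over all genes tested was 28.9% in RPT against RP and 41.5% in RPTi against RPT. Fosl1 and Jun, which encode AP-1 subunits, rose 3.35-fold and 1.69-fold in RPT against RP (edgeR adjusted p = 1.42e-07 and 1.40e-06) and had log2 fold changes of -3.59 and -0.91 in RPTi against RPT (edgeR adjusted p = 4.90e-10 and 8.94e-08). Sox9, the transcription factor of chondrocyte identity, was the gene that fell with thrombin and rose with the inhibitor. No link between these factors and the members was tested.

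The genes whose log2 CPM ran most like each member over the 9 libraries were named from 9857 other genes with a mean of at least 5 CPM. Because the libraries fall into 3 groups, these likenesses mostly restate the group means. For Adamts15 they were Fbn2, a fibrillin gene, Fxyd1 and the fibroblast growth factor receptor gene Fgfr3 (Pearson r of 0.998, 0.997 and 0.996), and 728 genes exceeded 0.9. For Adamts5 they were Slc24a3, Lrrc75b and Sox8, a relative of Sox9 (0.997, 0.996 and 0.995), and for Adamts12 they were Proser2, Slc35d1 and the growth factor gene Tgfb2 (0.996 each). Grb10, Fgfr2 and Sorbs2 ran most like Adamts9 (0.996, 0.994 and 0.994), and Ckb, Slc27a3 and Pias3 most like Adamts4 (0.987, 0.984 and 0.983). Fewer genes ran like Adamts1 and Adamts7, with 102 and 51 above 0.9, against 449 to 728 for the other members. The largest group differences of Adamts1 and Adamts7 were smaller than those of the other members, which can itself limit r. These counts therefore do not measure how rare a pattern is. Acvr1, Ntn4 and Dlgap4 led for Adamts1 (0.969, 0.965 and 0.965), and Galnt2, Ramp3 and Abhd4 for Adamts7 (0.989, 0.968 and 0.967).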

How the data were processed

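The authors deposited a read count for each Ensembl gene and library, per the file headers, and FPKM values, whose values equal count over gene length and library total. HISAT2, HTSeq 0.11.2 and DESeq2 1.26.0, with the build Rnor_6.0, are given in the submitters' processing notes, without roles or order. The strand setting of the counting is not given in the sources used here, so reads of overlapping or antisense genes are uncertain. Genes were kept by filterByExpr (minimum count 10, minimum total 15), which left 13856 of 18924 genes. Counts were scaled by TMM and fitted with edgeR 4.0.16 (glmQLFit and glmQLFTest, R 4.3.3) over all 9 libraries with 1 coefficient per group. Benjamini-Hochberg adjusted p below 0.05 over all genes tested was called, and the SE is the size of the log2 fold change over the root of F. The fit was also run on simulated data in which far fewer genes changed than were called here. That run does not measure how many of the calls here are false. Alternatives were DESeq2 1.42.0, other scalings, no filter, pairwise fits, a replicate block and leaving out each library. A count was worth 0.0227 to 0.0314 CPM. No 2 libraries of a group agreed within sampling noise. The members and lists were chosen with earlier results of these data known. Named genes were all members, up to 4 genes per list by smallest p in RPTi against RPT, and Acan, Vcan, Comp and Timp3; other genes were named after their values were seen. A planned comparison of catalytic sites is not analysed here.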

Additional observations from a re-analysis of the deposited data

How the results depend on the processing

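The 7 members in 3 comparisons gave 315 values over 15 alternatives, of which 309 kept their direction where called and their side of the threshold. The 6 others all concerned Adamts7: 4 losses in RPTi against RP when single libraries were left out, given above, and 2 gains in RPTi against RPT, with library totals alone (log2 fold change -0.25, edgeR adjusted p = 0.0440) and without RPT replicate 3 (-0.25, edgeR adjusted p = 0.0433). With single libraries left out, the members called numbered 5 throughout in RPT against RP, 6 to 7 in RPTi against RPT and 4 to 5 in RPTi against RP, and the genes called over all genes numbered 2889 to 3957, 4733 to 5893 and 2274 to 3992 in the same order. Deviations from the group means correlated between -0.114 and 0.124 for libraries of the same number. For libraries that differed in group and number they correlated between -0.161 and 0.143. These values do not settle whether the replicate numbers pair the libraries. A replicate block called 5074, 6698 and 4689 genes in these comparisons, against 3999, 5745 and 3352, and changed no call of a member. The difference in summed FPKM without single libraries ran from -11.2 to -9.59 for RPT minus RP, from 27.3 to 31.9 for RPTi minus RPT and from 16.7 to 21.3 for RPTi minus RP. The lowest member count was 121, so counting error limits Adamts15 in RPT the most.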

Other observations

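In the RefSeq gene table (GRCr8), Adamts1 and Adamts5 are neighbouring protein-coding genes, and so are Adamts15 and Adamts8. Within both neighbouring pairs the ratio of the counts set the RPT libraries apart from those of the other groups. The log2 ratio of Adamts5 to Adamts1 counts was -1.74, -1.77 and -1.59 in the RPTi libraries, -2.63, -2.73 and -2.88 in the RPT libraries and -1.81, -1.80 and -1.72 in the RP libraries. The RPT libraries lay below all others, and the mean differed by -0.97 between RPT and RP and by 1.04 between RPTi and RPT. The log2 ratio of Adamts15 to Adamts8 counts was 4.85, 4.89 and 7.01 in RPTi, 0.00, 0.09 and -0.20 in RPT and 3.72, 3.30 and 3.29 in RP. Both genes had about the same number of reads with thrombin alone, while Adamts15 had the more in every library of the other groups. The exact permutation tests gave p = 0.1 for these 4 differences with RPT, the smallest possible (adjusted p = 0.150 over 12 comparisons). Between RPTi and RP the mean log2 ratio of Adamts5 to Adamts1 differed by 0.08 (exact permutation p = 0.3, adjusted p = 0.4). That of Adamts15 to Adamts8 differed by 2.14 (exact permutation p = 0.1, adjusted p = 0.150). The pairs were chosen after the values had been seen, and no cause was tested.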
